A study of Mus musculus with 9 samples.

Results

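Cadherins, claudins, their cytoplasmic partners and the polarity proteins are the gene products that hold epithelial cells together and set their apical side. The 34 genes described here were chosen by symbol, with earlier results of these data known. Shares over all genes beside their counts are therefore descriptions only. Each gene was taken from its row in a table of 37975 genes. All 34 had 1 row per symbol, a usable estimate in each library and a maximum of at least 1 FPKM (fragments per kilobase of transcript, scaled to the mapped fragments of the library). The table was kept to 15082 rows with such a maximum wherever a background is given.

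RNA was sequenced from mouse cells in 9 libraries, each the only one of its group, so no value has a replicate error. There are 2 wild-type lines, R1 embryonic stem cells (ESC) and IM8AR XEN cells, which are extraembryonic endoderm stem cells of the primitive endoderm lineage. The remaining 7 libraries belong to an ESC line in which doxycycline (dox) switches on overexpression of Sox17, an endoderm transcription factor. It was sampled uninduced, at 7, 21, 35 and 49 h and day 6 of 100 ng/ml dox, and as Sox17-XEN. Of Sox17-XEN the label names both 30 days on dox and 30 days off dox without making their order plain, and its sample description carries the words dox-indep. The day 6 description carries the word SORT with no detail. Per the labels, ESC were kept with fibroblast feeders in serum medium with LIF, whereas XEN cells had serum medium conditioned by fibroblasts. The samples hold no uninduced library from the later times. Gene coordinates are those of the file, in mm9, unless another build is named.

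The libraries were first checked against marker genes. Sox17 was at 0.163 FPKM in R1 ESC, 0.909 FPKM without dox, 71.1 to 283 FPKM from 7 h to day 6, 101 FPKM in Sox17-XEN and 239 FPKM in wild-type XEN. Of 6 primitive endoderm markers all 6 were at 1 FPKM or more in day 6, Sox17-XEN and wild-type XEN cells, with sums of 1731, 1707 and 1386 FPKM against 6.04 FPKM in R1 ESC. Day 6 cells also had the highest sum of 6 visceral endoderm markers, 8396 FPKM against 62.7 FPKM in Sox17-XEN and 458 FPKM in wild-type XEN, and still had 369 FPKM of ESC markers against 10.6 and 12.1 FPKM in those lines. Of that sum 325 FPKM were Pou5f1 and 39.7 FPKM Zfp42, while Nanog, Sox2 and Tdgf1 were at 1.89, 1.84 and 1.04 FPKM at day 6. The 17 fibroblast markers summed to 999.7 to 2805 FPKM in the 6 libraries of R1 ESC and the Sox17 line up to 49 h. Their sum was 198 FPKM at day 6, 857 FPKM in Sox17-XEN and 19.0 FPKM in wild-type XEN, where Fap was listed at 0. At 1 FPKM or more were 15 of the 17 at day 6, 16 in Sox17-XEN and 3 in wild-type XEN. In such bulk libraries fewer cells of a type and less RNA per cell cannot be told apart. Depth relative to R1 ESC, estimated from low values, ran from 61.9% at day 6 to 127% at 7 h, and the absolute depth is unknown.

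As background, adherens junctions join neighbouring cells through cadherins, whose tails bind beta- and p120-catenin, and alpha-catenin links the complex to actin. Tight junctions seal the space between cells with strands of claudins and of the occludin family, anchored by the zonula occludens scaffold proteins, while the PAR and Crumbs complexes mark the apical side and desmosomes anchor intermediate filaments. ESC are joined by E-cadherin. In the embryo the primitive endoderm gives rise to the visceral endoderm, a polarized absorptive epithelium, and to the parietal endoderm, whose cells migrate singly.

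To show the control region of genes that part ways in these data, the 250 bases before the start site of 5 genes follow, from RefSeq (build GRCm38.p6), written 5′ to 3′ in the direction of transcription. Cldn4, Crb3 and Tjp3 are low in both XEN-type lines, and Cldn6 and Pard6b are high at day 6. Capitals mark the E-box CAGGTG or its reverse complement CACCTG, letters that the Snail and Zeb repressors are known to bind.
Cldn4: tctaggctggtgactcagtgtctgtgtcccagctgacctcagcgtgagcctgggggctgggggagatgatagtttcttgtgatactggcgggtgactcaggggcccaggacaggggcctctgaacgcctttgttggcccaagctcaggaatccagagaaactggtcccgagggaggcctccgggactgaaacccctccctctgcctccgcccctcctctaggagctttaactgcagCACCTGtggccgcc
Crb3: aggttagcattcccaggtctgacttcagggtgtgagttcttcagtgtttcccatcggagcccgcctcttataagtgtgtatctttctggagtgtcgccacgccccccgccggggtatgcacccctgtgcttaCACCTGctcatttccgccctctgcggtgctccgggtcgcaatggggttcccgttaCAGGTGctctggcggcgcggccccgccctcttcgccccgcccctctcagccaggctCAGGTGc
Tjp3: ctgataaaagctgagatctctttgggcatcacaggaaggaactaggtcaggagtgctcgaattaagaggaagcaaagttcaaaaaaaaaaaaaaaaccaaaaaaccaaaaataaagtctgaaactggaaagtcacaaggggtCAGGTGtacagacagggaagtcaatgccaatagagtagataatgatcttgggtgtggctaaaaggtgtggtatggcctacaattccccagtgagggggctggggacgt
Cldn6: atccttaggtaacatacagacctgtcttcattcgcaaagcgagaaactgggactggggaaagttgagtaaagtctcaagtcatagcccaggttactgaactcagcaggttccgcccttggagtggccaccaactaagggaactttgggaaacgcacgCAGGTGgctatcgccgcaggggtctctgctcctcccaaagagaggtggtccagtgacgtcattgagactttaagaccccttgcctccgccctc
Pard6b: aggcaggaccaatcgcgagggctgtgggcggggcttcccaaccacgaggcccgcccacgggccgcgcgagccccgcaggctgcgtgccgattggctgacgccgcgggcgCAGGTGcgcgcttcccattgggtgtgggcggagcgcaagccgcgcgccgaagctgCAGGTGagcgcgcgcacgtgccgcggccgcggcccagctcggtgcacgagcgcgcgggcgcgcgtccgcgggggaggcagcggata
These lie at chr5:134946935-134947184 (minus strand), chr17:57061951-57062200 (plus strand), chr10:81291582-81291831 (minus strand), chr17:23679115-23679364 (plus strand) and chr2:168080754-168081003 (plus strand). The Crb3 stretch holds 3 such matches, which begin 118, 63 and 7 bases before the start, the Cldn4 stretch 1 at 14 bases and the Tjp3 stretch 1 at 108 bases. The Cldn6 stretch holds 1 at 93 bases and the Pard6b stretch 2, at 141 and 86 bases. Of the 34 genes 25 have an entry, and the first entry held a match on either strand in 8 of the 25 (32.0%). The share over all 32851 entries was 17.2%. Among the 6 of these 25 that were lower in both XEN-type lines the match was found in 4 (Cldn4, Tjp3, Crb3 and Cobl), and among the other 19 in 4 (Epcam, Cldn6, F11r and Pard6b). So the letters stand before genes of either behaviour, and a match is a description and not a binding site. The 5 stretches shown are all among those 8, and Cdh1 and Cdh3 have no entry. Only first entries of the 34 genes were counted, whereas the share over all entries includes later ones. A later entry of Cldn7 held 2 matches, of Ocln 2 and of Pard3 3, and that of Cobl held 0. Whether the shares differ was not tested. The GATA motif AGATAA (or TTATCT) was in 2 of the 25 and in 9.99% of all entries, and the SOX core ACAAT (or ATTGT) in 2 of the 25 and in 27.7%.

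In what follows, higher and lower mean a difference of at least 2 in log2(FPKM + 1), which is 4-fold in FPKM + 1, between single libraries with no test. Such differences understate the change of genes at low levels. Between the 2 ESC lines without dox 8031 genes were at 5 FPKM or more in both, and 95% of their differences (the central share) lay between -0.90 and 1.01, a spread over genes and not the error of 1 gene. None of the 34 genes was higher or lower between these lines, against 0.367% and 0.227% of all genes tested. The authors' lower confidence bound is 0 for 294 of the 306 values described here, and by those intervals none of the 34 genes was separated between libraries in any comparison reported here. As an alternative, the first library named in a pair was rescaled by the median FPKM ratio of genes at 1 FPKM or more in both libraries. That median was 0.50 in log2 for wild-type XEN against R1 ESC (10402 genes), 0.37 for Sox17-XEN against no dox (10981 genes) and 0.24 for day 6 against no dox (11279 genes). Values after that rescaling are given beside some of the results.

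**Figure D1:**
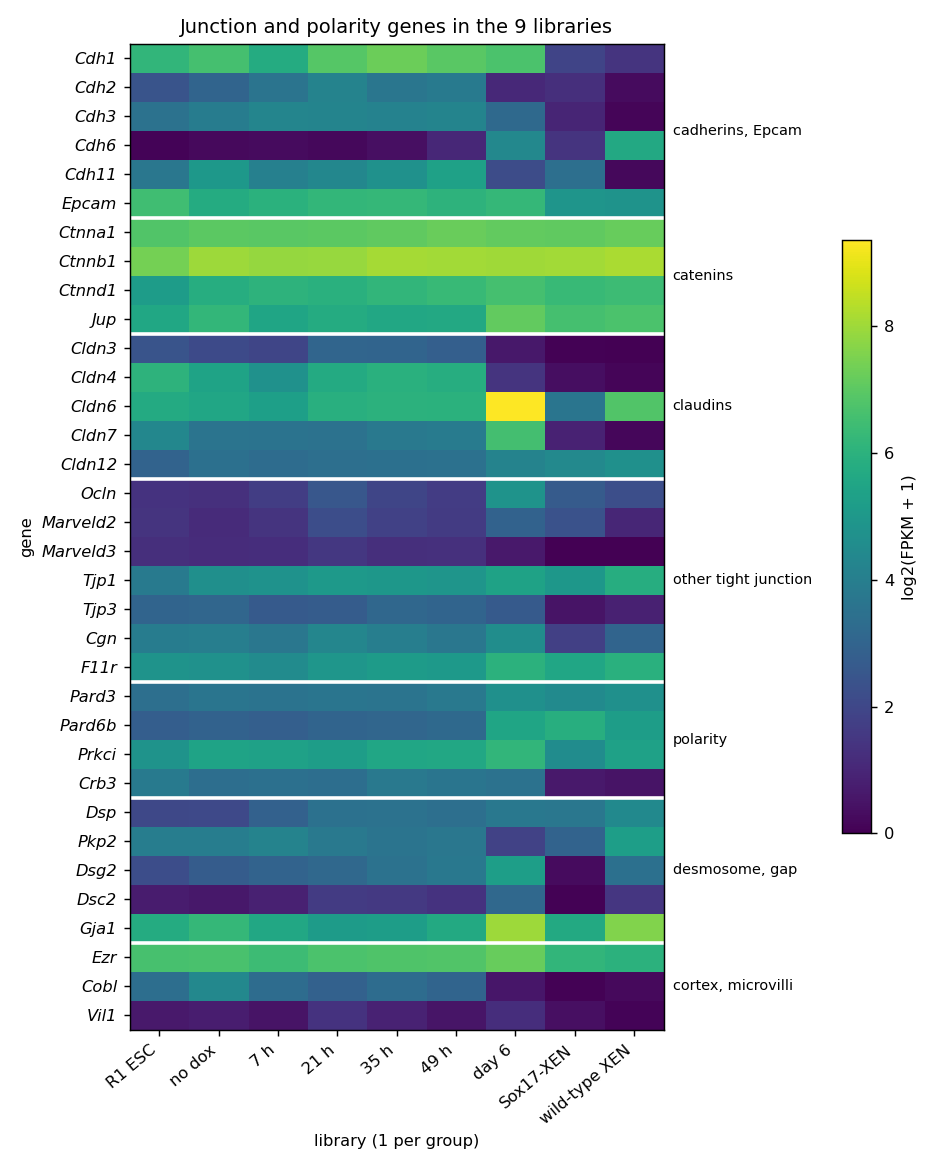
Levels of the 34 genes as log2(FPKM + 1), colour scale from 0, in the 9 libraries (columns, 1 per group), with the genes (rows) ordered by role. The catenin rows keep about 1 colour throughout, Cdh1, Cldn4 and Crb3 turn dark in Sox17-XEN and wild-type XEN, and Cldn6 is brightest at day 6 (657 FPKM).

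The first comparison asks which of the 34 genes were lower in the XEN-type lines than in the ESC lines. In wild-type XEN against R1 ESC 10 of the 34 genes were lower and 4 were higher, against 6.54% lower and 8.24% higher among 14974 genes tested. After rescaling 11 were lower and 1 was higher, since Epcam (-2.19) came in and Tjp1 (1.53), Pard6b (1.90) and Dsp (1.94) dropped out. The genes that were lower are 4 cadherins, 3 claudins, a tight junction scaffold gene, Crb3 and Cobl. In Sox17-XEN against the same line without dox 10 were lower and 1 was higher, against 5% and 5.75% of 14984 genes. After rescaling 11 were lower, since Cldn6 (-2.24) came in. Of the 34, 8 were lower in both pairs (23.5%, against 3.5% of 14925 genes): Cdh1, Cdh3, Cldn3, Cldn4, Cldn7, Tjp3, Crb3 and Cobl. The median over the 34 genes was 0.48 in the first pair and -0.71 in the second, beside 0.21 and 0.17 over all genes tested, so the group did not move one way as a whole. With a pseudocount of 5 in place of 1, which shrinks differences of low genes, 3 were lower in each pair.

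Cdh1 (ENSMUSG00000000303, chromosome 8, 109127250 to 109194146 in mm9) encodes E-cadherin, the main cadherin of ESC. It was at 71.2 FPKM in R1 ESC, 96.8 FPKM without dox, 52.7, 119, 152 and 124 FPKM at 7, 21, 35 and 49 h, 105 FPKM at day 6, 2.83 FPKM in Sox17-XEN and 1.63 FPKM in wild-type XEN. The lowest of the 7 libraries of ESC and of the dox course up to day 6 (7 h) stood far above both XEN-type lines. The differences were -4.78 in wild-type XEN against R1 ESC and -4.68 in Sox17-XEN against no dox, while day 6 differed from no dox by 0.11 (-0.12 after rescaling to the median gene).

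Cdh3 (chromosome 8, 109034790 to 109080808) encodes P-cadherin and stood at 10.5 FPKM in R1 ESC, 14.2 FPKM without dox, 17.9, 17.8, 16.9 and 17.8 FPKM at 7, 21, 35 and 49 h, 8.21 FPKM at day 6, 0.945 FPKM in Sox17-XEN and 0.103 FPKM in wild-type XEN. It followed Cdh1, with values near those of ESC up to 49 h, a lower value at day 6 that did not reach the difference, and under 1 FPKM in both XEN-type lines.

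Cdh2, which encodes N-cadherin, was at 4.41 FPKM in R1 ESC, 7.07 FPKM without dox, 11.3, 17.2, 11.7 and 13.4 FPKM at 7, 21, 35 and 49 h, 1.13 FPKM at day 6, 1.42 FPKM in Sox17-XEN and 0.211 FPKM in wild-type XEN. Its highest value was at 21 h, and day 6 and both XEN-type lines stood below R1 ESC. Cdh11, a cadherin of mesenchymal cells, was at 12.2 FPKM in R1 ESC, 30.5 FPKM without dox, 15.7, 19.0, 25.9 and 39.5 FPKM at 7, 21, 35 and 49 h, 3.53 FPKM at day 6, 9.66 FPKM in Sox17-XEN and 0.145 FPKM in wild-type XEN. It was lower in wild-type XEN (-3.53) and at day 6 (-2.80), and it is the only one of the 34 genes higher in Sox17-XEN than in wild-type XEN (3.22). The fibroblast markers ran in the same order at these points, with sums of 2273 FPKM without dox, 2805 FPKM at 49 h, 198 FPKM at day 6, 857 FPKM in Sox17-XEN and 19.0 FPKM in wild-type XEN. At 7, 21 and 35 h the sum was 1082, 1441 and 1840 FPKM, below that without dox. Cdh11 was also below its no dox value at these times, whereas Cdh2 was above its own. The part of fibroblasts in the Cdh11 and Cdh2 values was not tested.

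Cdh6, which encodes K-cadherin, went the other way, at 0.0712 FPKM in R1 ESC, 0.176 FPKM without dox, 0.218, 0.163, 0.305 and 1.07 FPKM at 7, 21, 35 and 49 h, 19.7 FPKM at day 6, 1.66 FPKM in Sox17-XEN and 49.8 FPKM in wild-type XEN. It was the highest cadherin of wild-type XEN, below 2 FPKM in Sox17-XEN, and at day 6 it lay between those lines. The difference was 5.57 in wild-type XEN against R1 ESC, 1.18 in Sox17-XEN against no dox (0.96 after rescaling) and -4.26 between the 2 XEN-type lines.

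By FPKM, which is a level per length, Cdh1 made up 53.9% to 76.2% of the sum of the 5 cadherins among the 34 genes in R1 ESC and the Sox17 line up to day 6. In wild-type XEN Cdh6 made up 96.0%, and in Sox17-XEN Cdh11 made up 58.5% and Cdh1 17.1%. The cadherin sum itself was 98.4 FPKM in R1 ESC, 149 FPKM without dox, 137 FPKM at day 6, 51.9 FPKM in wild-type XEN and 16.5 FPKM in Sox17-XEN. This sum leaves out the endothelial cadherin gene Cdh5, which is not among the 34. With Cdh5 the sum was 98.4 FPKM in R1 ESC, 149 FPKM without dox, 140 FPKM at day 6, 71.7 FPKM in wild-type XEN and 102 FPKM in Sox17-XEN. Epcam, an adhesion molecule that stabilizes claudins, was at 89.9 FPKM in R1 ESC, 53.0 FPKM without dox, 62.3, 72.4, 74.3 and 65.9 FPKM at 7, 21, 35 and 49 h, 74.0 FPKM at day 6, 28.4 FPKM in Sox17-XEN and 26.8 FPKM in wild-type XEN. Both XEN-type lines were lowest, but the differences of -1.71 and -0.88 were under 2 (-2.19 and -1.23 after rescaling).

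Catenins link cadherins to the cytoskeleton. Ctnnb1, which encodes beta-catenin, was at 166 FPKM in R1 ESC, 252 FPKM without dox, 237, 240.0, 275 and 268 FPKM at 7, 21, 35 and 49 h, 261 FPKM at day 6, 266 FPKM in Sox17-XEN and 286 FPKM in wild-type XEN. Its row shares its locus with 4 other genes including Ulk4, so its value is less certain. Ctnna1 (alpha-catenin) ran from 111 to 147 FPKM over the 9 libraries, Ctnnd1 (p120-catenin) from 34.9 to 97.0 FPKM and Jup (plakoglobin, of adherens junctions and desmosomes) from 44.5 to 137 FPKM. None of the 4 was past 2 log2 units in any of the 12 comparisons. In wild-type XEN against R1 ESC Ctnnb1 differed by 0.78 (0.28 after rescaling) and Ctnna1 by 0.40 (-0.10 after rescaling), so the direction of Ctnna1 rests on the scaling. The summed level of the 5 cadherins was 27.4% of the summed catenin level in R1 ESC, 29.4% without dox and 21.6% at day 6, but 8.35% in wild-type XEN and 2.87% in Sox17-XEN. With Cdh5 added these shares were 27.4%, 29.4%, 22.0%, 11.5% and 17.7%.

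**Figure D2:**
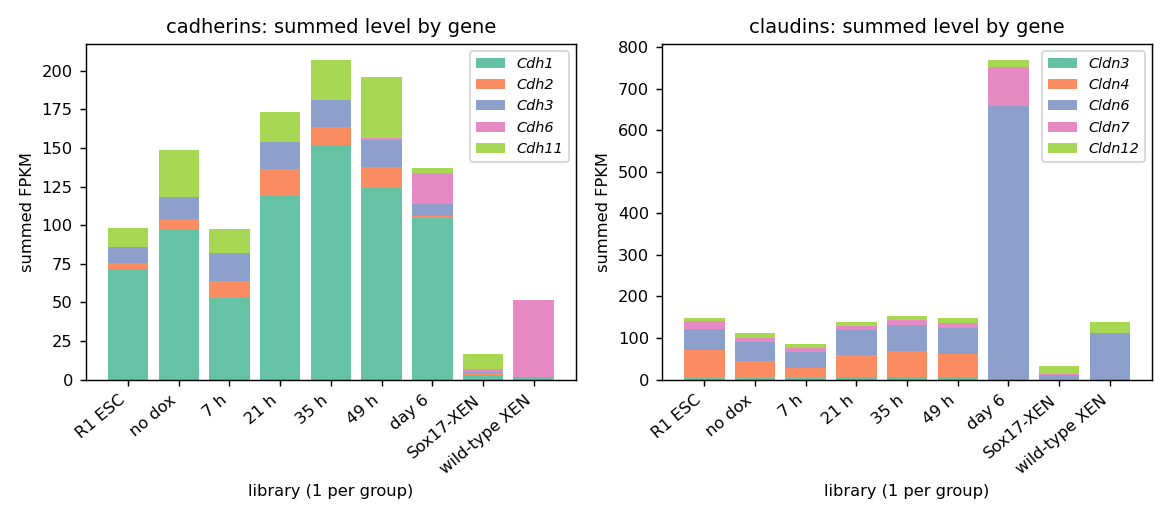
Summed FPKM of the 5 cadherin genes (left) and 5 claudin genes (right) in each library, stacked by gene, 1 library per bar and no error. Cdh1 fills most of the cadherin bars up to day 6 and Cdh6 that of wild-type XEN, and the day 6 claudin bar (769 FPKM) is mostly Cldn6.

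Among the claudins, Cldn4, on chromosome 5 (135420995 to 135422804), stood at 65.8 FPKM in R1 ESC, 41.8 FPKM without dox, 25.6, 51.4, 60.7 and 55.3 FPKM at 7, 21, 35 and 49 h, 1.65 FPKM at day 6, 0.266 FPKM in Sox17-XEN and 0.0800 FPKM in wild-type XEN. It was high up to 49 h and below 2 FPKM in the day 6, Sox17-XEN and wild-type XEN libraries. Cldn4 was thus lower at day 6 (-4.02 against no dox), when Cdh1 was not. Cldn3, its neighbour on chromosome 5, was at 4.41 FPKM in R1 ESC, 3.25 FPKM without dox, 2.88, 7.25, 7.10 and 6.13 FPKM at 7, 21, 35 and 49 h, 0.510 FPKM at day 6, 0.0426 FPKM in Sox17-XEN and 0 FPKM in wild-type XEN. It was listed at 0 in wild-type XEN and had the same shape as Cldn4 at a lower level, with -1.49 at day 6 against no dox and -2.24 against 49 h.

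Cldn7, on chromosome 11 (69778280 to 69781387), encodes a claudin that binds Epcam. It was at 19.3 FPKM in R1 ESC, 11.0 FPKM without dox, 10.8, 10.6, 12.9 and 13.8 FPKM at 7, 21, 35 and 49 h, 93.2 FPKM at day 6, 0.854 FPKM in Sox17-XEN and 0.110 FPKM in wild-type XEN. It stood highest at day 6, 2.97 above no dox, and under 1 FPKM in both XEN-type lines. Day 6 was 6.41 above wild-type XEN, and Sox17-XEN differed by -5.67 from day 6. Of the 12 comparisons that between day 6 and wild-type XEN held the largest difference of any of the 34 genes, that of Cldn7.

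Cldn6 (chromosome 17, 23816331 to 23819413), a claudin of early embryonic epithelia, stood at 51.9 FPKM in R1 ESC, 45.2 FPKM without dox, 37.9, 59.5, 63.2 and 62.1 FPKM at 7, 21, 35 and 49 h, 657 FPKM at day 6, 11.3 FPKM in Sox17-XEN and 113 FPKM in wild-type XEN. Day 6 stood 3.83 above no dox, and Sox17-XEN differed by -5.74 from day 6 and by -3.21 from wild-type XEN. Cldn6 was the commonest claudin of day 6 (85.4% of the claudin sum) and of wild-type XEN (81.8%), where R1 ESC had 35.0% Cldn6 and 44.4% Cldn4. It was already the commonest of the 5 in the Sox17 line without dox (40.6%, beside 37.6% Cldn4) and made up 41.1% to 44.0% from 7 to 49 h. Sox17-XEN had a claudin sum of 32.5 FPKM, of which Cldn12 made up 61.6%. Cldn12, a widely expressed claudin, ran from 6.99 to 24.9 FPKM and passed the difference in no comparison.

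The occludin family and the scaffold genes were split. Ocln, which encodes occludin, was at 1.58 FPKM in R1 ESC, 1.46 FPKM without dox, 2.28, 4.84, 2.84 and 2.15 FPKM at 7, 21, 35 and 49 h, 27.3 FPKM at day 6, 5.50 FPKM in Sox17-XEN and 3.72 FPKM in wild-type XEN. It was highest at day 6 (3.52 above no dox), and Sox17-XEN differed by -2.12 from day 6 and by 1.40 from no dox. Marveld2 (tricellulin, found where 3 cells meet) was also highest at day 6, with 6.73 against 1.21 FPKM without dox, a difference of 1.80. Marveld3 never exceeded 1.86 FPKM, and it was nearly absent from both XEN-type lines (0.00762 FPKM in Sox17-XEN, 0.00717 FPKM in wild-type XEN). The ESC lines held 1.43 FPKM (R1) and 1.27 FPKM (no dox). Its differences of -1.27 in wild-type XEN and -1.17 in Sox17-XEN stayed under 2, a size that a gene this low cannot reach downward.

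Tjp1, which encodes the scaffold protein ZO-1, was at 13.1 FPKM in R1 ESC, 24.6 FPKM without dox, 26.6, 31.9, 29.9 and 28.8 FPKM at 7, 21, 35 and 49 h, 40.6 FPKM at day 6, 30.3 FPKM in Sox17-XEN and 56.2 FPKM in wild-type XEN. It was just past the difference in wild-type XEN against R1 ESC (2.02, and 1.53 after rescaling) and within it in Sox17-XEN against no dox (0.29, and -0.07 after rescaling). Tjp3, which encodes ZO-3, was at 7.02 FPKM in R1 ESC, 7.42 FPKM without dox, 5.24, 5.53, 7.73 and 7.18 FPKM at 7, 21, 35 and 49 h, 5.32 FPKM at day 6, 0.400 FPKM in Sox17-XEN and 0.833 FPKM in wild-type XEN. It was lower in both XEN-type lines (-2.13 and -2.59) and not at day 6 (-0.41).

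Cgn, which encodes the tight junction plaque protein cingulin, was at 14.1 FPKM in R1 ESC, 15.2 FPKM without dox, 12.0, 18.4, 15.1 and 12.2 FPKM at 7, 21, 35 and 49 h, 23.3 FPKM at day 6, 2.41 FPKM in Sox17-XEN and 7.16 FPKM in wild-type XEN. Only Sox17-XEN was past the difference from its ESC line (-2.25), while wild-type XEN was at -0.88, and the difference between these 2 contrasts was not tested. F11r, the junctional adhesion molecule JAM-A, ran from 21.9 to 63.1 FPKM, with day 6 and wild-type XEN highest. The rows of Tjp3, Cgn and Crb3 share a locus with other genes (Apba3, Selenbp2 and Slc25a23 among them) and are less certain.

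**Figure D3:**
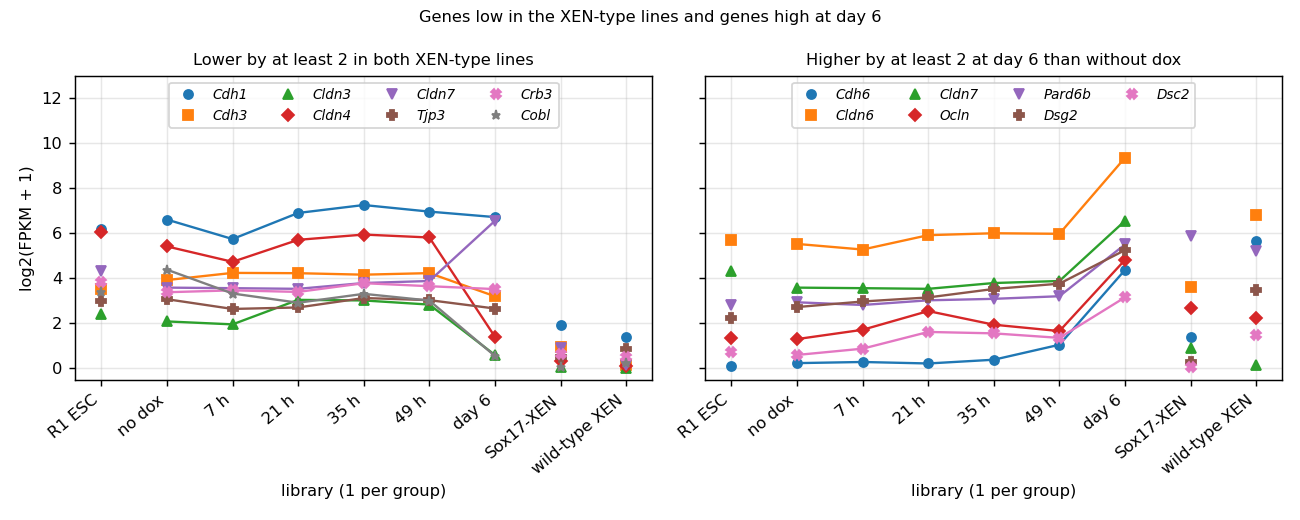
Levels as log2(FPKM + 1) by library (1 per group), points joined over the dox course only. Left, the 8 genes lower by at least 2 in both XEN-type lines, of which Cldn4, Cldn3 and Cobl are already low at day 6; right, the 7 genes higher by at least 2 at day 6 than without dox, of which Pard6b stays high in both XEN-type lines.

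Among the polarity genes Crb3 and Pard6b went opposite ways in the XEN-type lines, which does not hold for their complexes as a whole. Crb3, the epithelial Crumbs protein of the apical membrane, was at 13.4 FPKM in R1 ESC, 9.43 FPKM without dox, 10.1, 9.53, 12.8 and 11.6 FPKM at 7, 21, 35 and 49 h, 10.5 FPKM at day 6, 0.546 FPKM in Sox17-XEN and 0.425 FPKM in wild-type XEN. Day 6 differed from no dox by 0.14 (-0.07 after rescaling) and both XEN-type lines were below 1 FPKM (-3.34 and -2.75).

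Pard6b (chromosome 2, 167906503 to 167926703) encodes PAR6 beta, the adaptor between the small GTPase Cdc42 and atypical protein kinase C. It was at 6.01 FPKM in R1 ESC, 6.66 FPKM without dox, 6.05, 7.14, 7.51 and 8.23 FPKM at 7, 21, 35 and 49 h, 44.5 FPKM at day 6, 57.4 FPKM in Sox17-XEN and 35.7 FPKM in wild-type XEN. It was the only one of the 34 genes higher in both XEN-type lines (2.39 and 2.93; 1.90 and 2.57 after rescaling), with 3.76% of 14925 genes in that class, and it was as high at day 6 (2.57). Pard3, the PAR3 scaffold, ran from 9.78 to 25.0 FPKM and Prkci, its atypical protein kinase C partner, from 22.5 to 70.7 FPKM. Neither passed the difference in a comparison.

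The desmosome genes did not move together. Dsp, which encodes desmoplakin, the link to intermediate filaments, was at 3.05 FPKM in R1 ESC, 3.18 FPKM without dox, 6.41, 10.1, 10.4 and 9.76 FPKM at 7, 21, 35 and 49 h, 12.4 FPKM at day 6, 12.2 FPKM in Sox17-XEN and 20.7 FPKM in wild-type XEN. It was 1.41 above no dox by 21 h, the largest difference upward of the 34 genes at that time, and 2.42 above R1 ESC in wild-type XEN (1.94 after rescaling). Pkp2, which encodes plakophilin 2, was at 14.7 FPKM in R1 ESC, 14.5 FPKM without dox, 17.3, 12.6, 11.0 and 12.0 FPKM at 7, 21, 35 and 49 h, 2.64 FPKM at day 6, 6.79 FPKM in Sox17-XEN and 36.8 FPKM in wild-type XEN. It was lowest at day 6 (-2.09 against no dox) and highest in wild-type XEN.

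Dsg2 and Dsc2 encode a desmoglein and a desmocollin, the cadherins of desmosomes. Dsg2 was at 3.66 FPKM in R1 ESC, 5.61 FPKM without dox, 6.85, 7.89, 10.5 and 12.6 FPKM at 7, 21, 35 and 49 h, 37.2 FPKM at day 6, 0.211 FPKM in Sox17-XEN and 10.0 FPKM in wild-type XEN, and Dsc2 was at 0.659 FPKM in R1 ESC, 0.512 FPKM without dox, 0.834, 2.07, 1.94 and 1.56 FPKM at 7, 21, 35 and 49 h, 7.92 FPKM at day 6, 0.0458 FPKM in Sox17-XEN and 1.77 FPKM in wild-type XEN. Both were highest at day 6 (2.53 and 2.56 above no dox) and lowest in Sox17-XEN, which differed by -4.98 and -3.09 from day 6. The Dsg2 row shares its locus with Ttr, a visceral endoderm gene at 15.1 FPKM at day 6, 4.77 FPKM in Sox17-XEN and 22.0 FPKM in wild-type XEN, and the part of that overlap was not tested.

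Gja1, which encodes the gap junction protein connexin 43, was at 53.3 FPKM in R1 ESC, 73.8 FPKM without dox, 47.5, 34.1, 36.2 and 50.5 FPKM at 7, 21, 35 and 49 h, 251 FPKM at day 6, 49.9 FPKM in Sox17-XEN and 189 FPKM in wild-type XEN. It dipped at 21 h (-1.09) and 35 h (-1.01), short of the difference, and was 2.29 above 49 h at day 6. It had its highest value there, and Sox17-XEN differed from it by -2.31.

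Of the 3 cortex and microvillus genes, Cobl, an actin nucleator, was at 9.45 FPKM in R1 ESC, 19.9 FPKM without dox, 9.03, 6.55, 8.93 and 7.08 FPKM at 7, 21, 35 and 49 h, 0.465 FPKM at day 6, 0.0433 FPKM in Sox17-XEN and 0.183 FPKM in wild-type XEN. The Sox17 line without dox was highest, each later time was below it by at least 1.06, and day 6 and both XEN-type lines were below 1 FPKM. Ezr, which encodes ezrin, the membrane to actin linker of microvilli, ran from 63.9 to 143 FPKM with day 6 highest, and Vil1 (villin) stayed at 1.57 FPKM or less.

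The second question is when these changes appear. At 7, 21, 35 and 49 h of dox 0 of the 34 genes were past 2 log2 units from no dox, against 0.446%, 0.746%, 0.614% and 0.706% of genes higher and 0.34%, 0.446%, 0.46% and 0.466% lower. At a difference of 1, 0 were higher and 1 lower at 7 h (1.17% and 1.87% of all genes), and 5 were higher and 2 lower at 21 h (3.12% and 1.96%). At 35 h 1 was higher and 2 were lower (2.6% and 2.02%), and at 49 h 2 were higher and 1 was lower (3.26% and 2.29%). The 5 genes at 21 h were Cdh2, Ocln, Marveld2, Dsp and Dsc2.

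Day 6 was the first time with differences of 2. Against no dox 7 of the 34 were higher (Cdh6, Cldn6, Cldn7, Ocln, Pard6b, Dsg2 and Dsc2) and 4 were lower (Cdh11, Cldn4, Pkp2 and Cobl), with 5.14% of 14992 genes higher and 3.86% lower. After rescaling Cdh2 (-2.04) joined those that were lower, which made 5. Against 49 h 6 were higher (Cdh6, Cldn6, Cldn7, Ocln, Pard6b and Gja1) and 5 were lower (Cdh2, Cdh11, Cldn3, Cldn4 and Cobl), with 3.74% and 3.47% of all genes. No gene that was higher at day 6 had been lower by 2 at an earlier time, so no loss of that size was measured before these levels. Day 6 was the highest of the 9 libraries for 13 of the 34 genes, against 17.5% of all genes. The summed visceral endoderm markers were also highest there, and their relation to the junction genes was not tested.

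Several junction genes were higher at day 6 than in the XEN-type lines. Against wild-type XEN 6 genes were higher (Cdh1, Cdh3, Cldn6, Cldn7, Ocln and Crb3) and Pkp2 was lower, with 4.11% and 2.18% of genes, and after rescaling 8 were higher, with Cdh11 (2.11) and Marveld2 (2.08) added. Against day 6, Sox17-XEN had 12 of the 34 genes lower and 0 higher, with 3.62% and 2.96% of genes. Those 12 are Cdh1, Cdh3, Cdh6, Cldn6, Cldn7, Ocln, Tjp3, Cgn, Crb3, Dsg2, Dsc2 and Gja1. All 9 libraries lay within 2 log2 units for 13 of the 34 genes, among them Epcam and the 4 catenins, against 69.9% of all genes. Genes with a low maximum, such as Marveld3 and Vil1 among the 13, cannot exceed that span on the scale used here. The share of all genes includes such rows, so it does not compare genes of like level. Above both XEN-type lines by at least 2, and not below no dox by as much, were Cdh1, Cdh3, Cldn6, Cldn7, Ocln and Crb3 at day 6 (6 of 34, against 2.16% of 14932 genes). The 8 genes lower in both XEN-type lines thus fell into Cldn4 and Cobl, already lower at day 6, Cldn3, lower at day 6 against 49 h alone, and Cdh1, Cdh3, Cldn7, Tjp3 and Crb3, which were not lower by 2 at day 6.

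The 2 XEN-type lines differed in 5 of the 34 genes. In Sox17-XEN Cdh6, Cldn6, Pkp2 and Dsg2 were lower and Cdh11 was higher than in wild-type XEN, against 1.59% and 2.73% of genes. A XEN-type line was the lowest of the 9 libraries for 20 of the 34 genes, against 31.6% of all genes.

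**Figure D4:**
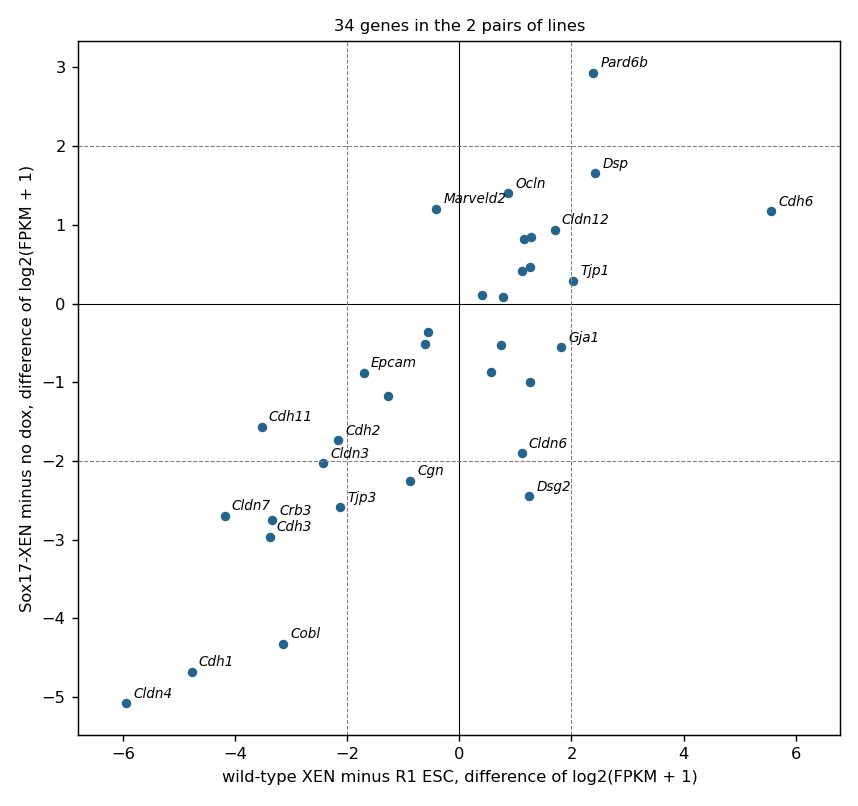
Each point is 1 of the 34 genes; the x axis gives wild-type XEN minus R1 ESC and the y axis Sox17-XEN minus the same line without dox, both as differences of log2(FPKM + 1), with dashed lines at 2 and -2. The 8 genes below -2 on both axes sit at the lower left, Pard6b alone is past 2 on both (1.90 on the x axis after rescaling), and Cldn6 and Dsg2 have opposite signs.

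With each library as 1 unit, the 2 XEN-type lines were tested against the 2 ESC-type lines with limma over 14925 genes (two-sided, Benjamini-Hochberg adjusted p under 0.05 and a difference of at least 2). Sox17-XEN and the no dox library belong to the same Sox17 line. The fit had no term for this, so its units are not independent and its SE and p-values are to be read with that limit. Of the 34 genes 8 passed downward and 2 upward, against 3.89% and 4.85% of all genes. The 8 are those lower in both pairs, and the test uses the same 4 libraries, so it is no further evidence. Cdh1 differed by -4.73 (SE 0.33, adjusted p = 0.0171, 0.00716 to 0.0912 over 8 alternatives), and both XEN-type lines lay below both ESC-type lines. Cldn4 differed by -5.52 (SE 0.37, adjusted p = 0.0171, 0.00716 to 0.0737) and Crb3 by -3.05 (SE 0.33, adjusted p = 0.0178, 0.0146 to 0.0847). Upward passed Pard6b, by 2.66 (SE 0.31, adjusted p = 0.0188, 0.0169 to 0.142), and Dsp, by 2.04 (SE 0.37, adjusted p = 0.0363, 0.0340 to 0.213, and a difference of 1.78 after quantile normalization). Cdh6 did not pass (3.37, SE 1.52, adjusted p = 0.180), nor did Cldn6 (-0.40, SE 1.15, adjusted p = 0.816). Dsp also lost its call with a pseudocount of 5 (1.37) and without wild-type XEN (1.68). With that pseudocount 2 of the 34 passed downward and 1 upward. With a pseudocount of 0.1 Marveld3 passed downward as well (-3.75), whereas its main difference (-1.22) was too small to pass. Without R1 ESC 0 of the 34 genes and 0 of all genes passed in limma, with 10 of the 34 lower and 1 higher at an unadjusted p under 0.05 (1973 and 1599 of all genes). Without the no dox library 0 passed again, with 10 of the 34 lower and 6 higher at that p (1983 and 2221 of all genes).

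Along the dox course (6 libraries) limma also tested each gene for a trend with the rank of time, and 0 of 14933 genes passed (2442 upward and 1305 downward at an unadjusted p under 0.05). Upward trends reached that unadjusted p for 13 of the 34 genes and downward ones for 2, and the smallest adjusted p was that of Dsg2 (0.44 log2 units per step, SE 0.09, adjusted p = 0.120). With time in hours 17 of the 34 passed upward and 5 downward, along with 6340 of all genes. With hours but without day 6, a setting added after the data were seen, 0 of the 34 and 1 of all genes passed, so that result rests on the day 6 library.

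Other genes of these junctions were taken from lists by role, and up to 4 with the largest differences in a comparison are named. Beside the list counts, 8.24% of all genes were higher and 6.54% lower in wild-type XEN against R1 ESC. At day 6 against no dox these shares were 5.14% and 3.86%, and in Sox17-XEN against no dox 5.75% and 5%. No such share was computed after rescaling. The lists are short, so small counts in them are descriptions only. Of 14 other adherens junction genes measured in both, 1 was higher and 2 were lower in wild-type XEN against R1 ESC. The one higher was Cdh5, the vascular endothelial cadherin, at 0.0373 FPKM in R1 ESC, 0.0753 FPKM without dox, 4.06 FPKM at 21 h, 2.33 FPKM at day 6, 85.1 FPKM in Sox17-XEN and 19.8 FPKM in wild-type XEN. In Sox17-XEN it exceeded each of the 5 cadherins described above, at 6.32 above no dox. Of the same list Arvcf, a p120-catenin relative, was lower in both pairs (-2.62 and -2.02), and the nectin gene Pvrl2 was 2.30 higher at day 6.

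Of 16 other tight junction genes 5 were higher and 2 lower in wild-type XEN against R1 ESC (2 and 2 after rescaling), and 4 were higher and 1 lower at day 6 against no dox (3 and 1). Amot, an angiomotin that binds junction scaffolds, was at 5.20 FPKM without dox, 35.5 FPKM at 49 h and 201 FPKM at day 6. Jam2 was lower in wild-type XEN (-3.20) and at day 6 (-2.82), and Ildr1 was lower in both XEN-type lines (-2.24 and -2.72).

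Of 19 other polarity genes 2 were higher in wild-type XEN (Inadl and Mpp5; 1 after rescaling) and 2 at day 6 (Inadl and Prkcz; 1 after rescaling), with 0 lower. Inadl, which encodes the Crumbs complex scaffold PATJ, was at 5.85 FPKM without dox, 61.1 FPKM at day 6, 30.9 FPKM in Sox17-XEN and 36.3 FPKM in wild-type XEN. Inadl differed by 2.61 in wild-type XEN against R1 ESC and by 2.22 in Sox17-XEN against no dox (2.12 and 1.86 after rescaling). Crb2, another Crumbs gene, was higher in Sox17-XEN (2.63, and 2.32 after rescaling). Prkcz, the second atypical protein kinase C gene, was at 7.38 FPKM without dox and 36.2 FPKM at day 6, but 0.688 FPKM in Sox17-XEN.

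Of 11 other desmosome and gap junction genes 4 were lower and 0 higher in wild-type XEN, and 3 were higher and 2 lower at day 6 (2 and 2 after rescaling). Gjc1, a connexin gene, was lower at day 6 (-3.16) and in both XEN-type lines (-4.17 and -3.89). Perp, which encodes a desmosomal membrane protein, was lower at day 6 (-2.04) and in both XEN-type lines (-2.31 and -2.65).

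Of 12 other genes of the cortex and microvilli 4 were higher and 1 lower in wild-type XEN (2 and 1 after rescaling), and 5 were higher and 1 lower at day 6 (4 and 1). Podxl, the anti-adhesive apical sialomucin podocalyxin, was at 7.98 FPKM without dox, 51.8 FPKM at 49 h, 428 FPKM at day 6, 156 FPKM in Sox17-XEN and 346 FPKM in wild-type XEN. Slc9a3r1, which encodes the ezrin-binding scaffold NHERF1, was higher in wild-type XEN (2.10, but 1.60 after rescaling) and at day 6 (2.41, and 2.18 after rescaling) but not in Sox17-XEN (-0.41). Espn, an actin bundling gene, was lower in both XEN-type lines (-2.58 and -2.13).

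Among 17 regulators of epithelial and mesenchymal state 1 was higher and 5 were lower in wild-type XEN, 1 and 6 at day 6, and 1 and 3 in Sox17-XEN (1 and 6, 1 and 7, and 1 and 4 after rescaling). The one higher was each time Snai1, which encodes the repressor Snail that binds the E-box, at 4.40 FPKM in R1 ESC, 8.52 FPKM without dox, 19.6 FPKM at 49 h, 45.5 FPKM at day 6, 157 FPKM in Sox17-XEN and 69.2 FPKM in wild-type XEN. At day 6 Cdh1 was at 105 FPKM and Snai1 at 45.5 FPKM in the same bulk library, and their relation was not tested. Vim, the mesenchymal intermediate filament gene, was lower at day 6 (-2.70), where the fibroblast marker sum was lower too, and its relation to that sum was not tested. Esrp1, an epithelial splicing factor, was at 21.2 FPKM at day 6 against 1.08 FPKM in Sox17-XEN and 0.133 FPKM in wild-type XEN. Grhl2, an activator of epithelial junction genes, was already low at day 6 (0.536 against 19.5 FPKM without dox). Of this list Twist2 is also among the 17 fibroblast markers.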

How the data were processed

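RNA was sequenced from 9 libraries, 1 per group as the labels give it. The authors deposited 1 table of FPKM values with confidence bounds and a status per gene. Tools are listed in the submitters' processing notes as TopHat2 2.0.11 with Cufflinks 2.1.2 and Cuffdiff on mm9, and the annotation and the use of strand are not given in the sources used here. Where several genes share a listed locus, as for 15 of the 34 genes here and 38.9% of all genes, their values are less certain.

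From these values log2(FPKM + 1) was computed for genes that reached 1 FPKM in some library and had a status of OK in the libraries compared. Differences of single libraries have no test and are called at 2 log2 units. Two-sided tests with limma 3.58.1 (R 4.3.3), Benjamini-Hochberg adjusted over all genes, compared the 2 XEN-type with the 2 ESC-type lines and looked for a trend with the rank of time. Both tests were run on simulated data with independent libraries and the same spread for each gene. That check does not cover libraries of the same line or genes of unlike spread. Nothing in the labels says that libraries came from separate cultures, so p-values measure only the spread between these libraries. Tables were handled with pandas 2.3.3 (Python 3.11.15).

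All 34 genes are described. Values in all 9 libraries are given for Cdh1, Cdh2, Epcam, Ctnnb1, Ocln, Tjp1 and each gene past 2 log2 units in 1 of 5 comparisons, and the other genes by range. From each list of other genes up to 4 with the largest differences in a comparison are named. The genes and lists were chosen with earlier results of these data known. Alternatives were pseudocounts of 0.1 and 5, no filter, listed values whatever the status, summed rows per symbol, quantile normalization, rescaling to the median ratio, a size of 1 log2 unit, the authors' intervals, time in hours and each library left out. The intervals of the deposited file are the authors' own.

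Of the genes that the naming rule covers, 1 from the lists of other genes is not reported here.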

Additional observations from a re-analysis of the deposited data

Results flagged for a closer look

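Cldn6 and Dsg2 went opposite ways in the 2 pairs of a XEN-type and an ESC-type line. Cldn6 differed by 1.11 on the log2(FPKM + 1) scale in wild-type XEN against R1 ESC and by -1.91 in Sox17-XEN against no dox. Dsg2 differed by 1.24 in the first pair and by -2.45 in the second. Each value compares 1 library with 1 library, and the difference between the pairs was not tested. In all 7 of the 34 genes had opposite signs (also Marveld2, Prkci, Pkp2, Dsc2 and Gja1), and these 2 were beyond 1 log2 unit in both. After rescaling to the median gene Cldn6 differed by 0.61 and -2.24 and Dsg2 by 0.79 and -2.51, so neither was beyond 1 in the first pair.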

How the results depend on the processing

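Each group has 1 library, so differences carry no interval. No paired analysis was run, since each group has 1 library and the labels give no replicate numbers. The shared origin of Sox17-XEN and the no dox library was not modelled either. By the authors' intervals 0 of the 34 genes were separated in wild-type XEN against R1 ESC, day 6 against no dox, 49 h or wild-type XEN, or Sox17-XEN against no dox, day 6 or wild-type XEN.

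With a pseudocount of 5 wild-type XEN against R1 ESC had 1 gene higher and 3 lower (4 and 10 with 1), day 6 against 49 h had 7 in either direction (11), Sox17-XEN had 3 lower than no dox (10), 5 lower than day 6 (12) and 2 past the difference from wild-type XEN (5), and day 6 had 3 higher than wild-type XEN (6). With a pseudocount of 0.1 the counts were 1 at 49 h against no dox, 2 higher in Sox17-XEN against no dox, 9 between the XEN-type lines and 14 higher at day 6 against wild-type XEN. Rescaling left 1 higher in wild-type XEN against R1 ESC. At a size of 1 log2 unit 13 were higher in wild-type XEN against R1 ESC, 1 differed between the ESC lines, and 1, 7, 3 and 3 differed from no dox at 7, 21, 35 and 49 h. At that size 12 were higher at day 6 against no dox, 17 differed between day 6 and 49 h, 5 were higher in Sox17-XEN against no dox and 2 against day 6, 10 differed between the XEN-type lines, and day 6 had 16 higher and 2 lower than wild-type XEN.

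Over all genes limma passed 1305 between the line types, 2177 with a pseudocount of 0.1, 535 with 5, and 0 to 1473 with 1 library left out. The trend passed 0, 6340 with time in hours and 1 with hours and without day 6. The cause of these shifts was not tested. Of 1530 values of single genes under an alternative 1415 kept their call, 64 lost and 51 gained a call. Among them 50 changed sign (12 on rescaling), none of them called, with a size of at most 0.63 log2 units before the change.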
